A study of Mus musculus with 4 samples.

Results

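The genes described here are 9 mouse genes that type I interferon induces: Ifit1, Ifit2, Ifit3, Rsad2, Oasl2, Isg15, Usp18, Ifih1 and Irf7. They were chosen by their symbols, with their measured difference between the groups already known from these same 4 arrays. Their differences are therefore given as a description, without a test, and support nothing further. All 9 were measured, by 11 probes, of which 10 were well above background on at least 2 arrays, out of 38231 such probes and 16794 named genes on the arrays. Gene expression was measured on 4 Agilent 1-colour arrays, each hybridised with the Cy3-labelled total RNA of a dorsal hippocampus sample from female mice, collected once a series of behavioural tests was over. A pair of arrays, replicates 2 and 3, came from animals given 20-fold iodine, and a pair, also replicates 2 and 3, from animals labelled control. Strain, genotype, age, the iodine compound and the length of exposure are not given in the sources used here, and any further replicates are not analysed here. Whether each replicate is its own animal is not stated, so a p-value reflects no more than the spread among these arrays, part of which may be technical.

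Type I interferons, the interferon alpha family and interferon beta, bind a receptor made of IFNAR1 and IFNAR2. The kinases JAK1 and TYK2 then phosphorylate STAT proteins, which join IRF9 in a complex that binds the interferon-stimulated response element, a DNA motif near the start of the induced genes. In the brain, microglia, astrocytes, neurons and vascular cells can all answer interferon, and low levels of the induced genes are seen without infection.

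The arrays were alike in depth of signal: 37535 and 37752 probes were well above background on the iodine arrays, and 37894 and 37921 on the control arrays, and no spot was saturated. Pairwise correlations between arrays across named genes, each by its brightest kept probe, were 0.994 to 0.996. By the median of the interferon-induced genes control replicate 3 stood apart from the other arrays, so results are given with and without it. For Ifit2 and Ifit3 the control arrays differed less (0.25 and 0.18) than the iodine arrays did (0.47 and 0.23). The arrays shared 1 slide and 1 scan, with the iodine samples in columns 3 and 4 and the controls in columns 1 and 2, so slide position and group cannot be told apart. Markers of hippocampal neurons were well above background for 9 of 9 genes, the brightest being Zbtb20, Wfs1 and Slc17a7, which differed by 0.02, -0.11 and 0.40 (iodine minus control, log2). The number of arrays limits the precision of every value.

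The response element is shown because interferon acts on its induced genes through it. The search used 300 bases per gene, from 250 before to 50 after the start of transcription (RefSeq, GRCm38.p6), and the core letters GAAANNGAAA on both strands. The core was present in 1131 of 32851 windows (3.44%) in 3.99% of genes with a window, and in 5 of the 8 members that have one, Usp18 having no window in the table. The stretches around the matches are printed 5′ to 3′ on the strand of the gene, with the matched letters in capitals. The stretches come from chr19:34640760-34640838 (plus strand) for Ifit1, chr19:34583348-34583441 (plus) for Ifit3, chr12:26456538-26456597 (minus) for Rsad2, chr4:156200850-156200921 (minus) for Isg15 and chr2:62646206-62646248 (minus) for Ifih1.
Ifit1: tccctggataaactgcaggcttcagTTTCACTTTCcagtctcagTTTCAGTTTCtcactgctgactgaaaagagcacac
Ifit3: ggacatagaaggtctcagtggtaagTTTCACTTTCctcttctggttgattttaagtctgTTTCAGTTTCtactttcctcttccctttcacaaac
Rsad2: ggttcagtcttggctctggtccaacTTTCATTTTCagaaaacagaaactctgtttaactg
Isg15: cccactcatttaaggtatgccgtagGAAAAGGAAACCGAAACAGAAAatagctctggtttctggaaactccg
Ifih1: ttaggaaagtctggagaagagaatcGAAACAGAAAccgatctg

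Ifit1 and Ifit3 each held a pair of separate matches, and Isg15 held 3 that overlap in 1 run. Counted from the start of transcription, the matches began at -104 and -85 in Ifit1, at -156 and -122 in Ifit3, at -120 in Rsad2 and at -78, -72 and -66 in Isg15. The match of Ifih1 began at 32, after the start. Ifit2, Oasl2 and Irf7 had no match of these letters in their windows. The letters TTCNNNGAA are the core of the gamma-activated site through which interferon gamma acts. They were in 8.30% of all windows, in 9.55% of genes with a window and in 1 of the 8 members, Ifit2. A match is a description of letters and not a measured binding site.

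Across the 9 genes, the iodine mean was below the control mean in every one, by 0.25 (Usp18) to 0.92 (Ifit1) on the log2 scale, with a median difference of -0.56, or -0.13 with normexp background correction. In 6 of the 9, Ifit1, Ifit2, Ifit3, Isg15, Ifih1 and Irf7, both iodine arrays lay below both control arrays. Of all 16794 genes, 21.9% showed that separation, 54.4% had a difference below 0, and the median difference was -0.014. Since the 9 genes were chosen on this contrast, nothing is read from the excess. limma, fitted to all 38231 probes with Benjamini-Hochberg adjustment, called 0% of them at an adjusted p under 0.05; its smallest adjusted p was 0.518, while 3448 probes had an unadjusted p under 0.05. In bulk tissue, fewer cells of a type and less RNA per cell cannot be told apart.

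The Ifit genes encode antiviral proteins with tetratricopeptide repeats, and IFIT1 binds viral RNA at its capped end. All values per array are normalized log2 signals, that is log2 of the scanner's processed signal after each array's 75th percentile was set equal. Ifit1 had 3.58 and 3.39 on the iodine arrays (replicates 2 and 3), against 4.15 and 4.66 on the control arrays. The groups did not overlap, with means of 3.48 ± 0.13 in iodine and 4.41 ± 0.37 in control (SD, n = 2 each) and a difference of -0.92, or -0.13 with normexp background correction. This probe was dim, with processed signals of 11.8 and 9.97 on the iodine arrays and 18.6 and 25.8 on the control arrays, and the scanner software gave it an error of 10.8 to 14.4% per spot.

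Ifit3 had 6.73 and 6.96 on the iodine arrays, against 7.55 and 7.73 on the control arrays. Its group means were 6.85 ± 0.16 in iodine and 7.64 ± 0.13 in control (SD, n = 2 each), a difference of -0.79, so the gap between the groups was wider than the gap within either. Ifit2 had 3.50 and 3.97 on the iodine arrays, against 4.18 and 4.43 on the control arrays. It averaged 3.74 ± 0.33 in iodine and 4.30 ± 0.17 in control (SD, n = 2 each), a difference of -0.56 (-0.10 with normexp), and its iodine replicate 3 came close to control replicate 2.

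Rsad2 encodes viperin, a radical SAM enzyme that makes a chain-terminating nucleotide. It had 3.72 and 4.27 on the iodine arrays, against 3.73 and 4.83 on the control arrays. The groups overlapped: replicate 2 was nearly equal in both, and the control arrays differed from each other by 1.103, more than the difference of -0.29 between the groups (-0.02 with normexp). A second Rsad2 probe was not well above background on any of the 4 arrays.

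Oasl2 belongs to the oligoadenylate synthetase family, whose members sense double-stranded RNA. It had 6.49 and 6.49 on the iodine arrays, against 6.34 and 7.20 on the control arrays. The iodine arrays lay between the control arrays, and the difference of the means was -0.28.

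ISG15 is a ubiquitin-like protein that is attached to other proteins, and USP18 is the protease that removes it and also restrains signalling at the IFNAR2 chain. Isg15 had 6.90 and 7.03 on the iodine arrays, against 7.11 and 7.995 on the control arrays. The groups did not overlap, but control replicate 2 lay only just above the iodine arrays, and the difference of -0.59 came with a gap of 0.89 between the control arrays. Usp18 had 4.28 and 4.30 on the iodine arrays, against 4.18 and 4.89 on the control arrays, a difference of -0.25 (-0.06 with normexp) with overlapping groups.

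Ifih1 encodes MDA5, a cytoplasmic sensor of long double-stranded RNA. It had 4.16 and 4.42 on the iodine arrays, against 4.69 and 5.02 on the control arrays. Means were 4.29 ± 0.18 in iodine and 4.85 ± 0.24 in control (SD, n = 2 each), a difference of -0.56 (-0.13 with normexp) with no overlap.

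Irf7 encodes the transcription factor that amplifies interferon alpha production. It had 6.83 and 6.85 on the iodine arrays, against 6.93 and 7.59 on the control arrays, a difference of -0.42 in which control replicate 2 sat 0.09 above the iodine mean. A dimmer second Irf7 probe had 2.49 and 2.52 on the iodine arrays, against 1.78, not well above background, and 3.27 on the control arrays. That probe's difference was -0.02 and its groups overlapped, so the 2 probes of Irf7 do not agree on a separation.

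**Figure D1:**
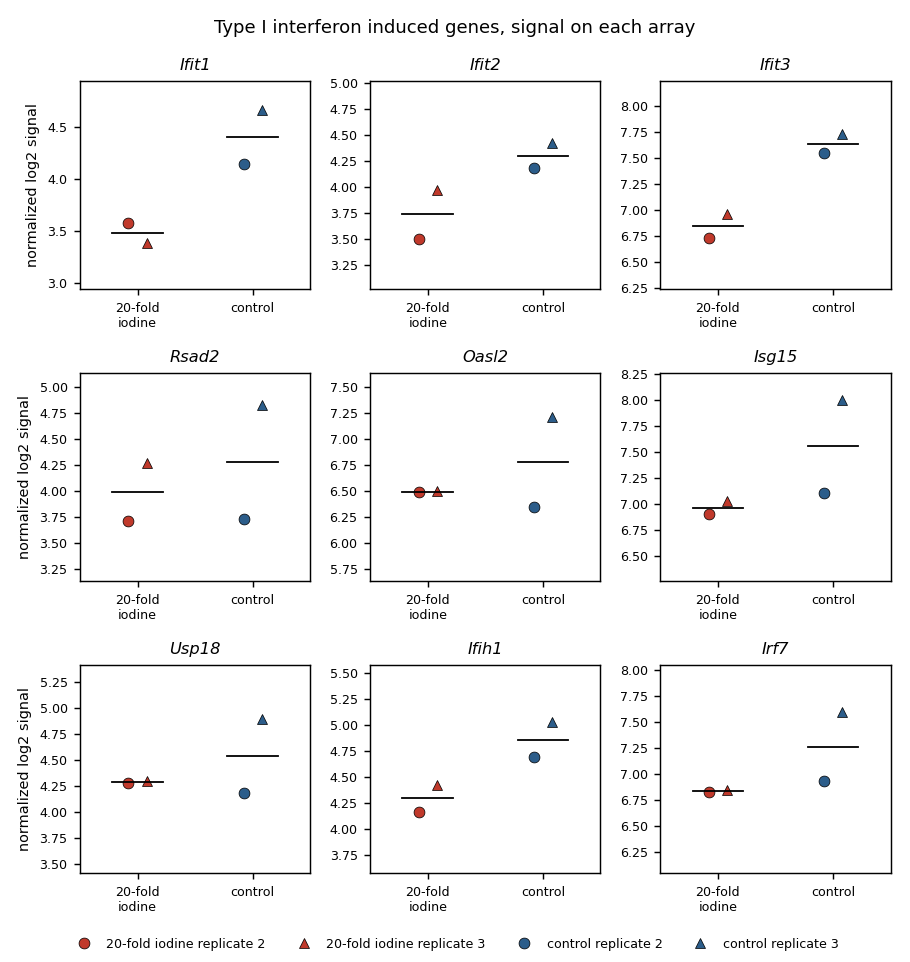
Normalized log2 signal (y axis, spanning 2 log2 units in every panel) of each of the 9 genes on the 20-fold iodine arrays (left) and the control arrays (right); circles are replicate 2, triangles replicate 3 and bars the group means. Control replicate 3 is the highest array in all 9 panels, and the groups overlap for Rsad2, Oasl2 and Usp18.

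The 9 genes shared 1 feature across arrays: each was highest in control replicate 3. That array was the highest for 4126 of all 16794 genes (24.6%). Since the 9 genes were chosen on this contrast, a control array was likely to be their highest. Nothing is read from that excess, or from the gaps between arrays given below. Relative to each gene's mean over the 4 arrays, the median deviation of the 9 genes was -0.37 and -0.15 on the iodine arrays and -0.12 and 0.54 on the control arrays. By this median control replicate 2 lay near the iodine arrays, but the genes differed. In Ifit3 it stood at 0.31, against -0.51 and -0.28 on the iodine arrays and 0.49 on control replicate 3. In Ifit1 it stood at 0.20, against -0.37 and -0.56 on the iodine arrays and 0.72 on control replicate 3. In Oasl2 and Usp18 it was the lowest array. The control arrays differed from each other by a median of 0.66 over the 9 genes, against 0.098 over all genes, and the iodine arrays by 0.19, against 0.11 over all genes. The gap between the control arrays was larger than the difference between the groups for 5 of the 9 genes, close to the share over all genes (8996 of 16794).

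Without control replicate 3 the median difference of the 9 genes was -0.14. The sign turned for Rsad2 (0.26), Oasl2 (0.15) and Usp18 (0.11). Isg15 (-0.14) and Irf7 (-0.09) kept their sign at a small size. The other 4 were less affected: Ifit3 gave -0.70, Ifit1 -0.67, Ifit2 -0.44 and Ifih1 -0.39. Both iodine arrays lay below control replicate 2 in 6 of the 9 genes, and in 37.0% of all genes. These are the same 6 genes as over all 4 arrays. Control replicate 3 was highest in all 9, so leaving it out could not change that count.

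**Figure D2:**
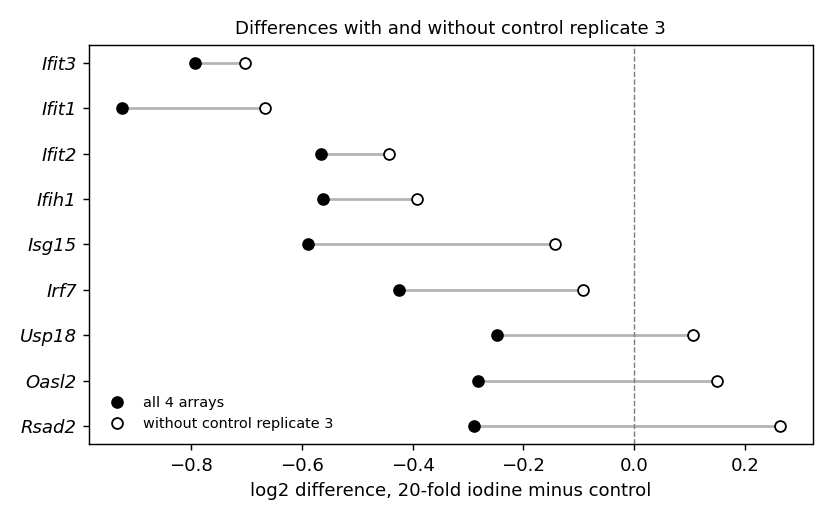
Difference of 20-fold iodine minus control (x axis, log2) for each of the 9 genes over all 4 arrays (filled circles) and without control replicate 3 (open circles). Rsad2, Oasl2 and Usp18 cross 0, while Ifit3, Ifit1, Ifit2 and Ifih1 stay between -0.70 and -0.39.

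Ifit1, Ifit2 and Ifit3 are neighbours on chromosome 19, in the order Ifit2, Ifit3, Ifit1bl1, Ifit3b, Ifit1bl2 and Ifit1. Of these 6 genes, 4 had both iodine arrays below both control arrays, against 21.9% of all genes, but 3 of the 4 are among the 9 chosen on this contrast. Ifit1bl1 overlapped, and Ifit1bl2 was higher in iodine by 0.05 ± 0.08 (SE), within its error. Ifit3b had 5.61 and 5.61 on the iodine arrays, against 6.13 and 6.12 on the control arrays. Its difference of -0.51 ± 0.08 (SE) was -0.52 without control replicate 3, and its adjusted p from limma was 0.518. Ifit3b is a near copy of Ifit3, and their promoter stretches around the 2 matches are identical at 94 of 94 bases, while the overlapping parts of their windows, aligned without gaps, match at 201 of 268 (75%). Signal of the 2 genes may be shared between probes, and their separate values are uncertain. Ifit1bl1 had 3.18 and 3.78 on the iodine arrays, against 3.53 and 3.46 on the control arrays (-0.02 ± 0.22, SE). It has windows for 2 start sites, each with 1 match, at -104 and at -23. The stretch with the match at -104, in capitals, comes from chr19:34602038-34602097 (minus strand).
Ifit1bl1: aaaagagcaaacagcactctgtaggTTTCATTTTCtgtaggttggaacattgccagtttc

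**Figure D3:**
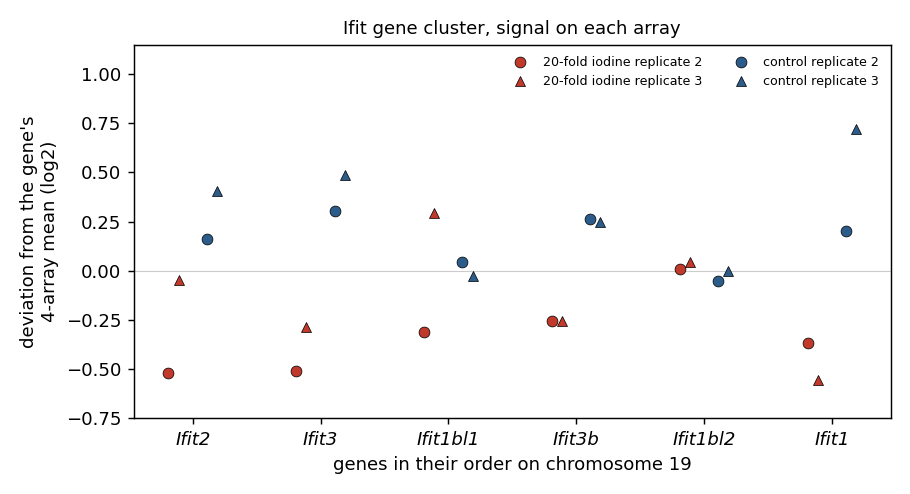
Deviation of each array from the gene's 4-array mean (y axis, log2) for the 6 genes of the Ifit cluster in chromosomal order (x axis); red is 20-fold iodine, blue control, circles replicate 2 and triangles replicate 3. Blue lies above red for Ifit2, Ifit3, Ifit3b and Ifit1, and the controls of Ifit3b almost coincide at 6.13 and 6.12 in signal.

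The pathway around these genes was described from lists, chosen with earlier results of these data known, and none of their genes passed limma at an adjusted p under 0.05. Upstream, the gene for interferon beta, Ifnb1, had 1 probe that was not well above background on any array, and the same held for Ifng. Of 20 type I and III interferon genes, 17 were on the array, 8 were kept, and 3 of those 8 lay below 0. The brightest of them were Ifnl3 at -0.01, Ifna11 at -0.41 ± 0.19 (SE), Ifna1 at -0.26 ± 0.14 (SE) and Ifna14 at 0.06.

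The groups overlapped for the brightest probe of each chain of the type I receptor. Ifnar1 had 11.16 and 11.23 on the iodine arrays, against 11.17 and 11.22 on the control arrays (0.00 ± 0.08, SE). Ifnar2 had 7.94 and 8.03 on the iodine arrays, against 7.89 and 8.13 on the control arrays (-0.03 ± 0.11, SE). Dimmer probes of both gave higher differences, up to 0.28 over 3 kept probes of Ifnar1 and 0.27 over 2 of Ifnar2. Of 5 receptor genes kept, 3 lay below 0, and Ifngr1 at -0.19 ± 0.10 (SE) and Ifngr2 at 0.16 ± 0.11 (SE), both chains of the interferon gamma receptor, lay on either side.

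Among the signalling genes, 7 of 10 lay below 0, against 54.4% of all genes, with a median of -0.08. Stat2 had 8.29 and 8.26 on the iodine arrays, against 8.40 and 8.56 on the control arrays (-0.21 ± 0.09, SE). Irf9 had 7.59 and 7.70 on the iodine arrays, against 7.71 and 8.11 on the control arrays (-0.27 ± 0.16, SE). Both iodine arrays lay below both controls for Stat2 and Irf9, the Irf9 gap being narrow. These were 2 of the 10 signalling genes (20%), near the 21.9% of all genes, so nothing is read from that count. By their brightest probes, Jak1 (-0.08), Pias1 (0.04) and Ptpn2 (-0.08), the last a phosphatase that opposes JAK signalling, stayed close to 0. Differences ran from -0.26 to 0.04 over 4 kept probes of Pias1 and from -0.08 to 0.19 over 2 of Ptpn2.

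Of 14 sensors and adaptors kept, 9 lay below 0 and 4 had both iodine arrays below both controls, near the 54.4% and 21.9% of all genes, with a median of -0.04. The brightest were Traf3 (-0.05), Tlr9 (0.02), Trim25 (0.00) and Tlr7 (-0.05, and -0.44 by a second probe). Of 6 other interferon regulatory factors kept, 5 lay below 0, with a median of -0.16 that was 0.00 without control replicate 3. Among them Irf3, which acts upstream of interferon beta, gave 0.00, and Irf1 gave -0.30 ± 0.25 (SE), Irf2 -0.10 and Irf8 0.08. Second probes gave 0.11 for Irf3 and 0.17 for Irf1, so the 2 probes of Irf1 do not agree in sign. The enzymes that attach ISG15, Uba7 and Ube2l6, differed by -0.12 ± 0.23 and -0.03 ± 0.08 (SE).

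Of 54 other interferon-induced genes, 48 were kept, 39 lay below 0, and 16 (33.3%) had both iodine arrays below both controls, against 21.9% of all genes. Another 2 were higher without overlap and 30 overlapped. Their median difference was -0.22, against -0.014 over all genes, and it was -0.01 without control replicate 3 and -0.41 without control replicate 2. The 8 brightest were Sp110 at 0.20 ± 0.09 (SE), Ifi27 at -0.09, Adar at 0.04, Znfx1 at -0.15, Ifitm3 at -0.26 ± 0.28 (SE), Lgals3bp at -0.26 ± 0.29 (SE), Samhd1 at -0.28 ± 0.16 (SE) and Pml at 0.05. Control replicate 3 was the highest array for 36 of the 48 (75%), against 24.6% of all genes. The probes of Sp110 disagreed, with differences of -0.45 to 0.20 over 3 probes.

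The guanylate-binding proteins and immunity-related GTPases, which interferon gamma induces most strongly, had a median difference of -0.89, with 14 of 15 genes below 0, against 54.4% of all genes. In only 3 of the 15 (20%) did both iodine arrays lie below both controls, against 21.9% of all genes. Control replicate 3 was highest in 14 of the 15. Tgtp2 had 6.19 and 7.14 on the iodine arrays, against 6.89 and 9.74 on the control arrays (-1.65 ± 1.03, SE), and Igtp had 6.60 and 6.73 on the iodine arrays, against 6.63 and 8.79 on the control arrays (-1.05 ± 0.75, SE). Without that array the median was -0.04, and without control replicate 2 it was -1.74. Irgm1 (-0.52 ± 0.35, SE) and Gbp9 (0.06) were the other bright genes of the list.

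Genes of antigen presentation by MHC class I lay below 0 in 14 of 14, and 7 (50%) had both iodine arrays below both controls, against 54.4% and 21.9% of all genes. H2-K1, a heavy chain, had 9.75 and 9.67 on the iodine arrays, against 9.96 and 10.97 on the control arrays (-0.76 ± 0.36, SE). B2m, the light chain, had 10.53 and 10.49 on the iodine arrays, against 10.70 and 11.35 on the control arrays (-0.52 ± 0.24, SE). The median of the list was -0.54, and -0.11 without control replicate 3, the highest array for 12 of the 14. Psmb10 (-0.06) and Psme1 (-0.02), of the immunoproteasome and its activator, were close to 0.

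**Figure D4:**
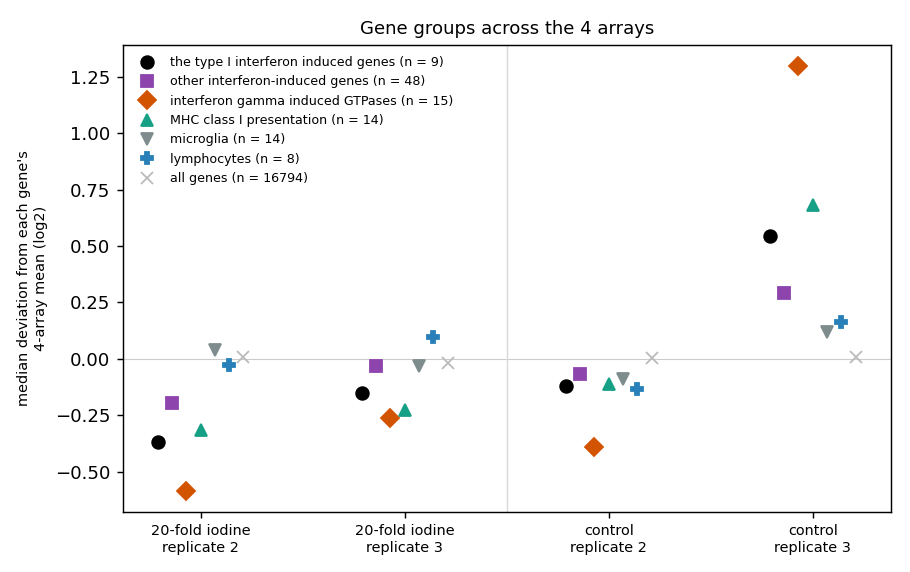
Median deviation from each gene's 4-array mean (y axis, log2) on each array (x axis) for the 9 genes, 3 further interferon-induced lists, microglia and lymphocyte markers and all genes. On control replicate 3 the 9 genes stand at 0.54, MHC class I genes at 0.68, the GTPases at 1.30 and the other interferon-induced genes at 0.29. Of the 2 marker lists drawn, microglia stand at 0.12 and lymphocytes at 0.16. Marker lists not drawn ranged from -0.06 (oligodendrocytes) to 0.34 (meningeal fibroblasts), with neutrophils at 0.29 and border macrophages and monocytes at 0.28.

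Markers of other cells were set beside these values as the log2 of their summed signals on each array, with the difference of the brightest genes of each list. All 14 microglial markers were kept. Their sums were 15.63 and 15.53 on the iodine arrays and 15.50 and 15.53 on the control arrays. Most of that signal was Siglech, with 15.38 and 15.28 on the iodine arrays and 15.26 and 15.24 on the control arrays. Siglech differed by 0.08, a second Siglech probe by -0.17, and Csf1r by 0.01. Control replicate 3 was the highest array for 9 of the 14 microglial markers (64.3%), against 24.6% of all genes. Lymphocyte markers were kept for 8 of 13 genes, with sums of 9.71 and 9.75 on the iodine arrays and 9.63 and 9.58 on the control arrays. Most of that signal was Cd4, with 9.28 and 9.29 on the iodine arrays and 9.18 and 9.07 on the control arrays. Cd4 differed by 0.16, Cd3e by 0.09, a second Cd3e probe by -0.07, and Prf1 by -0.03. Of the 8 lymphocyte markers, 4 lay below 0 and 4 were highest in control replicate 3, against 54.4% and 24.6% of all genes. The dimmest of the 8, Nkg7, differed by -0.73. Cd3g, Cd8a, Ms4a1, Cd79a and Gzmb were not well above background on any array. Border macrophage and monocyte markers were kept for 7 of 9, with sums of 10.79 and 11.01 on the iodine arrays and 11.10 and 11.47 on the control arrays. Those sums were almost wholly the signal of Ly6c2, which had 10.69 and 10.88 on the iodine arrays and 10.99 and 11.38 on the control arrays (-0.40). Ly6c1, of the endothelial list, was close to it, with 10.86 and 11.02 on the iodine arrays and 11.11 and 11.46 on the control arrays. Whether the 2 probes share signal was not tested, so those sums are not read as signal of monocytes. Of the 7 markers, 3 were highest in control replicate 3. Pf4 differed by 0.07 and Cbr2 by -0.18, while Lyve1 and Ccr2 were not well above background on any array. Their part in the result was not tested.

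Endothelial markers summed to 12.17 and 12.32 on the iodine arrays and 12.15 and 12.51 on the control arrays, with Ly6c1 at -0.34, Cldn5 at 0.60 and Flt1 at 0.10. Neutrophil markers, kept for 3 of 6 (S100a9, S100a8 and Camp), summed to 6.51 and 5.99 on the iodine arrays and 5.59 and 6.30 on the control arrays. Astrocyte markers summed to 12.94 and 12.87 on the iodine arrays and 12.84 and 12.94 on the control arrays, oligodendrocyte markers to 14.77 and 14.72 on the iodine arrays and 14.72 and 14.71 on the control arrays, and red blood cell markers to 14.57 and 14.62 on the iodine arrays and 14.22 and 14.66 on the control arrays. Meningeal fibroblast markers, with Dcn, Col1a2 and Igf2 the brightest, summed to 11.26 and 12.04 on the iodine arrays and 11.79 and 12.15 on the control arrays. Choroid plexus markers, led by Ttr, Folr1 and Clic6, summed to 12.99 and 15.33 on the iodine arrays and 14.60 and 14.43 on the control arrays. Both lists were lowest in iodine replicate 2, the array in which the 9 genes also had their lowest median, and their part in the result was not tested.

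Among 14985 candidates, the genes whose values over the 4 arrays were most like the median of the 9 genes, by Euclidean distance between centred log2 signals, included Ezhip, Ier3, Rida, Ly6a, Olfr821, Avil, Mgst1, Oas1f and Ifi27l2a. Their distances were 0.083 (Ezhip) to 0.15 (Ifi27l2a). Ly6a is in the endothelial list and Ifi27l2a in that of the other interferon-induced genes. Their adjusted p from limma was 0.602 to 0.743.

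The response element core was also counted in the other lists. Among genes with a window, at least 1 window held it in 20 of 42 of the other interferon-induced genes (47.6%), in 9 of 10 GTPases and in 4 of 13 MHC class I genes, against 3.99% of all genes with a window. Over the 491 genes outside the 9 that held the core and were measured, the median difference was -0.04, 24.4% had both iodine arrays below both controls and 31.6% were highest in control replicate 3. Over the 12746 measured genes whose window lacked it, the median was -0.01, 22.05% had both iodine arrays below both controls and 24.1% were highest in control replicate 3. The 491 still include genes of the other interferon-induced, GTPase and MHC class I lists, so they are not a separate set of genes.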

How the data were processed

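The authors deposited the output of Agilent Feature Extraction (version 12.1.1.1) for 4 arrays. Its processed signal, an intensity that per the file headers is background-subtracted and detrended within each array, was used. Outlier spots (47 to 70 per array) were left out and spots of a probe averaged, giving 56605 probes. Log2 signals had each array's 75th percentile subtracted and the mean percentile added back. Probes well above background on at least 2 arrays were kept. Transcript accessions, matched to RefSeq (GRCm38.p6), named 32994 probes (58.3%), and the brightest kept probe stood for a gene. limma 3.58.1 (R 4.3.3; plots by matplotlib 3.10.9) was fitted to each kept probe, two-sided, and tested on simulated data. Named genes were the members, receptor and signalling genes, the brightest of each list, and the nearest profiles. The members and lists were chosen with earlier results of these data known. Deposited median spot and background intensities served the normexp alternative in place of mean signals. Same-numbered arrays did not deviate together (correlation -0.02). Values of some genes under the rule for named genes are not reported here.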

Additional observations from a re-analysis of the deposited data

How the results depend on the processing

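With 2 arrays per group, each value rests on few samples, and dim probes (Ifit1, Ifit2, Rsad2, Usp18, Ifih1) lie nearest to background. With normexp background correction, computed with an offset of 50 on median spot signals, the median difference of the 9 genes was -0.13, the other interferon-induced genes lower without overlap numbered 8 against 16, and limma called 21 probes; Ifit1 gave -0.13 against -0.92, Ifit2 -0.10 against -0.56 and Ifih1 -0.13 against -0.56, and Ifit3 -0.58 against -0.79. The offset is larger than the processed signals of those 5 dim probes on every array and draws their differences toward 0; the cause of the other shifts was not tested. limma with an intensity trend and robust variances called 53 probes. Of the calls under either setting, 0 were in the pathway lists. Leaving out each array in turn gave medians of the 9 genes from -0.76 to -0.14, and medians of the other interferon-induced genes from -0.41 to -0.014. The other interferon-induced genes lower without overlap then numbered 17 to 38, and all genes lower without overlap 6009 to 7061. The sign of 3 genes turned without control replicate 3, and leaving out each array gave -0.84 to 0.26 for Rsad2, -0.71 to 0.15 for Oasl2 and -0.60 to 0.11 for Usp18. Quantile normalization, scaling to the median, and the filters on dim probes kept all 9 differences below 0, and with the replicate block the median was -0.56, with 0 probes called and 3031 at an unadjusted p under 0.05. Slide as a block was not run, since there was 1 slide and 1 scan.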

Other observations

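Of the 147 pathway genes outside the 9, 122 were measured, and 4 had an unadjusted p under 0.05 in limma by their brightest kept probe. Over all kept probes, counted by probe and not by gene, it was 3448 of 38231, so these shares are of unlike units. The 4 genes are named here after their values were seen: Ifit3b at -0.51 ± 0.08, Ifi204 at -0.78 ± 0.20, Trim21 at -0.49 ± 0.15 and Tbk1 at -0.33 ± 0.12 (log2 iodine minus control, with SE). Their adjusted p was 0.518 to 0.552, so none passed the adjusted threshold. Ifi204 is a nuclear DNA sensor of the p200 family, Trim21 an intracellular antibody receptor and Tbk1 the kinase that activates IRF3.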
